A study of Rorippa islandica and Rorippa pyrenaica with 24 samples.

Results

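Of 30646 genes counted in young leaves of *R. islandica*, 88 had a transcript level that was high after 24 h of submergence and had dropped again after 48 h, while the control plants changed little. These genes were chosen by their measured values. For each gene the isoforms were summed, counts were divided by the library total and scaled to a common depth (CPM), the 3 replicates were averaged, and 0.5 CPM was added to each mean. A gene was kept if log2 of submergence over control at 24 h was at least 1, log2 of submergence at 48 h over submergence at 24 h was -1 or lower, and the controls of the 2 harvests differed by less than 0.5 on the log2 scale. All 4 *R. islandica* group means entered this choice, so every *R. islandica* value of these genes is a description and carries no test. The *R. stylosa* libraries did not enter it, and the same genes were tested there.

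The study compared a submergence-tolerant species, *R. islandica*, which is annual and selfing and was grown from seed, with a sensitive one, *R. stylosa*, which is perennial and self-incompatible and was propagated vegetatively, separately for each replicate. Both are diploid. In both species, plants grown on soil were completely submerged in tap water in transparent boxes under a day and night rhythm, and control plants stood in empty boxes in air. The groups were *R. islandica* submerged for 48 h, submerged for 24 h, control at 48 h and control at 24 h, and the same 4 groups of *R. stylosa*, with 3 libraries each and 24 in all. Reads of both species were assigned to the *R. islandica* transcriptome, so a low *R. stylosa* count can come from a diverged or missing sequence as well as from low transcript abundance, and which of these applied was not tested. The harvest is written in the column names only as 1 or 2, which was read as 24 and 48 h.

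Submergence slows gas exchange between leaf and surroundings, so that the gaseous hormone ethylene builds up in the tissue and oxygen and carbon dioxide become short. Plants answer with large changes in transcript levels, in part through ethylene and oxygen-sensing transcription factors, and many of the early responses are known to be temporary as tissue, metabolism and growth adjust. A gene that is high on the first day and lower on the second is a candidate for such a temporary response, but a level at 2 harvests does not show when it peaked.

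The tables give identifiers (Roisl, a block number, s and a running number) without gene names, so the function of the 88 genes was not analysed here and neither leaf markers nor lists of hypoxia or ethylene genes could be looked up. Fewer cells of a type and less RNA per cell cannot be told apart in these bulk leaf samples. Library totals lay between 24127592 and 66692318 counts. Chi-square per degree of freedom between replicate libraries of a group was 11.4 to 153, so no library had been deposited in duplicate within its group. Libraries of different groups were not compared in this way. For the 88 genes, 48 h submergence replicate 1 of *R. islandica* and 48 h submergence replicate 2 of *R. stylosa* stood apart from the other libraries of their groups, and results that rest on them are given with and without them.

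The 88 genes together took a visible share of the leaf transcriptome on the first day under water. In *R. islandica* their summed level was 5430, 7230 and 6830 CPM in the 3 libraries of plants submerged for 48 h, against 15300, 16500 and 19400 CPM after 24 h of submergence. The controls had 1350, 1260 and 1320 CPM at 48 h and 1040, 1530 and 1250 CPM at 24 h. No library of one submerged group reached the range of the other, and all 6 submerged libraries were above all 6 controls. On average the sum was 6500 ± 945 CPM after 48 h of submergence and 17100 ± 2110 CPM after 24 h, against 1310 ± 45.8 CPM and 1270 ± 246 CPM in the controls at 48 and 24 h (SD, n = 3 each). Thus the sum had dropped on the second day but had not returned to the control level.

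In *R. stylosa* the same 88 genes summed to 4910, 7390 and 4700 CPM after 48 h of submergence and to 6100, 7930 and 6010 CPM after 24 h. The controls had 746, 867 and 824 CPM at 48 h and 905, 931 and 906 CPM at 24 h. Here the ranges of the 2 submerged groups overlapped, while both were clear of the controls. Replicate 2 had the highest sum in all 4 *R. stylosa* groups, and the plants of each replicate had been propagated separately. Between libraries of the same replicate number, the sum after 48 h of submergence was the lower in all 3. It was 4910 against 6100 CPM in replicate 1, 7390 against 7930 CPM in replicate 2 and 4700 against 6010 CPM in replicate 3. The median of the 88 genes (log2 of CPM plus 0.5) did not keep this order in replicate 2. It was 2.83 against 3.05 in replicate 1, 3.17 against 3.14 in replicate 2 and 3.14 against 3.19 in replicate 3. The main fit did not use the replicate number as a pairing. The means of the sum were 5670 ± 1500 CPM and 6680 ± 1080 CPM after 48 and 24 h of submergence (SD, n = 3 each).

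**Figure D1:**
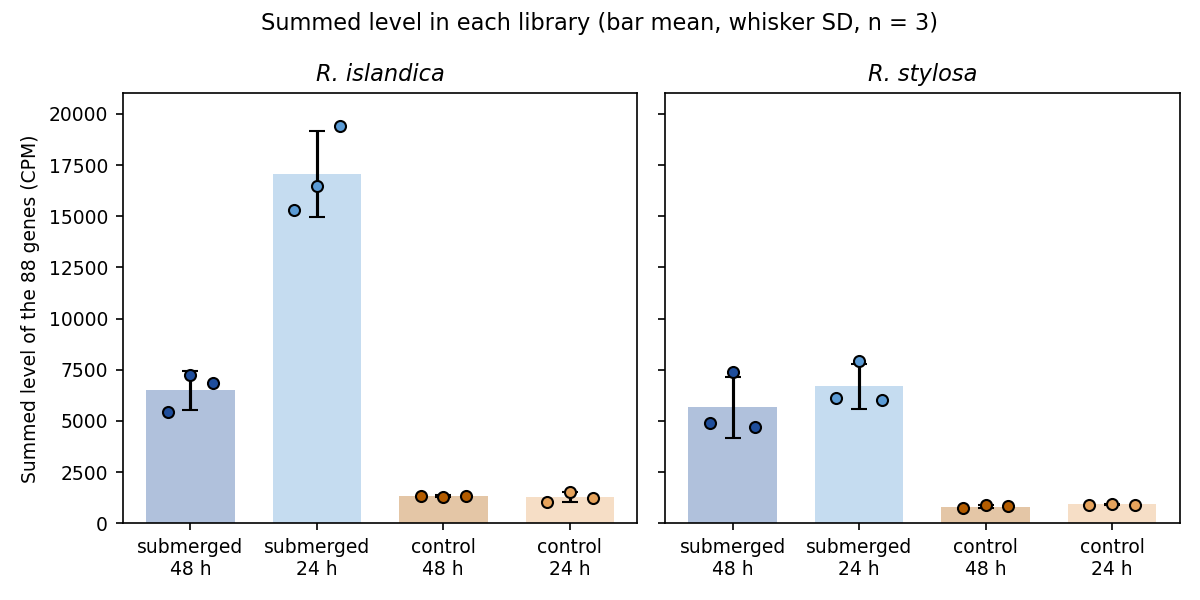
Summed level of the 88 genes in CPM (y axis) in each library of *R. islandica* (left) and *R. stylosa* (right), by treatment and harvest; points are libraries, bars means and whiskers SD (n = 3). The *R. islandica* libraries submerged for 48 h lie at 5430 to 7230 CPM and those submerged for 24 h at 15300 to 19400 CPM, while the corresponding *R. stylosa* ranges overlap.

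A few abundant genes dominated these sums. The 2 most abundant genes made up 31.2% of the *R. islandica* sum at 24 h of submergence and the 10 most abundant 64.5%. The level of a single gene at that time ranged from 1.12 to 2670 CPM with a median of 33.1 CPM. It was above 10 CPM for 62 genes, above 100 CPM for 29 and above 1000 CPM for 3. After 48 h of submergence the median was 13.0 CPM, and in the controls it was 3.24 CPM at 48 h and 2.92 CPM at 24 h. Most of the genes thus had a low level in control leaves. CPM are not corrected for transcript length, so that levels are set against each other here only as shares of the counts.

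The size of the first-day change in *R. islandica* differed widely among the 88 genes. Log2 of submergence over control at 24 h ranged from 1.03 to 8.15, with a median of 2.49 and quartiles of 1.64 and 4.44. The change from the first to the second day of submergence was much more uniform, from -2.58 to -1.0 with a median of -1.27. It was close to the limit for many genes: 40 of the 88 were between -1 and -1.2, 21 were at -1.5 or lower and 3 at -2 or lower. Expressed as a share, the level after 48 h of submergence was between 16.6% and 49.8% of that after 24 h, with a median of 39.8%. The control leaves changed by -0.48 to 0.42 between the harvests.

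These values were set by the limits of the choice. The last gene inside the limit for the second day had 40.4 CPM after 48 h and 81.5 CPM after 24 h of submergence (log2 -1.0), and the next gene outside had 15.4 and 31.1 CPM (log2 -0.99). For the first-day rise, the last gene inside had 425 CPM in submerged and 208 CPM in control leaves at 24 h (log2 1.03), and the next outside had 1.54 and 0.55 CPM (log2 0.96). For the controls, the last gene inside changed by -0.48 and the next outside by 0.51. A further 11 genes met the limits for rise and fall but not that for the controls. Among 3181 genes that rose by at least 1 on the first day with stable controls, the 88 were 2.77%.

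The strongly raised genes were still far above control on the second day, and genes with a small rise were close to it. Log2 of submergence over control at 48 h ranged from -0.86 to 6.70 with a median of 1.41. It was at least 1 for 51 genes, of which 18 were at 4 or above, it lay between -1 and 1 for 37 genes, and no gene was at -1 or lower. The 28 genes with a first-day rise of 4 or more stood at a median of 4.60 at 48 h, and their median level at 24 h of submergence was 156 CPM. The 26 genes with a rise of 2 to 4 stood at 1.46 at 48 h (median level 25.4 CPM at 24 h) and the 34 genes with a rise of 1 to 2 at 0.14 (median level 10.8 CPM at 24 h). The 13 genes that were below their control at 48 h all belonged to the group with the smallest rise. The median change from 24 to 48 h of submergence was similar in the 3 groups, at -1.35, -1.2 and -1.19 from the largest to the smallest rise. This order follows from the choice, since the fall was near its limit for most genes and the controls were required to be stable, and nothing is read from it.

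**Figure D2:**
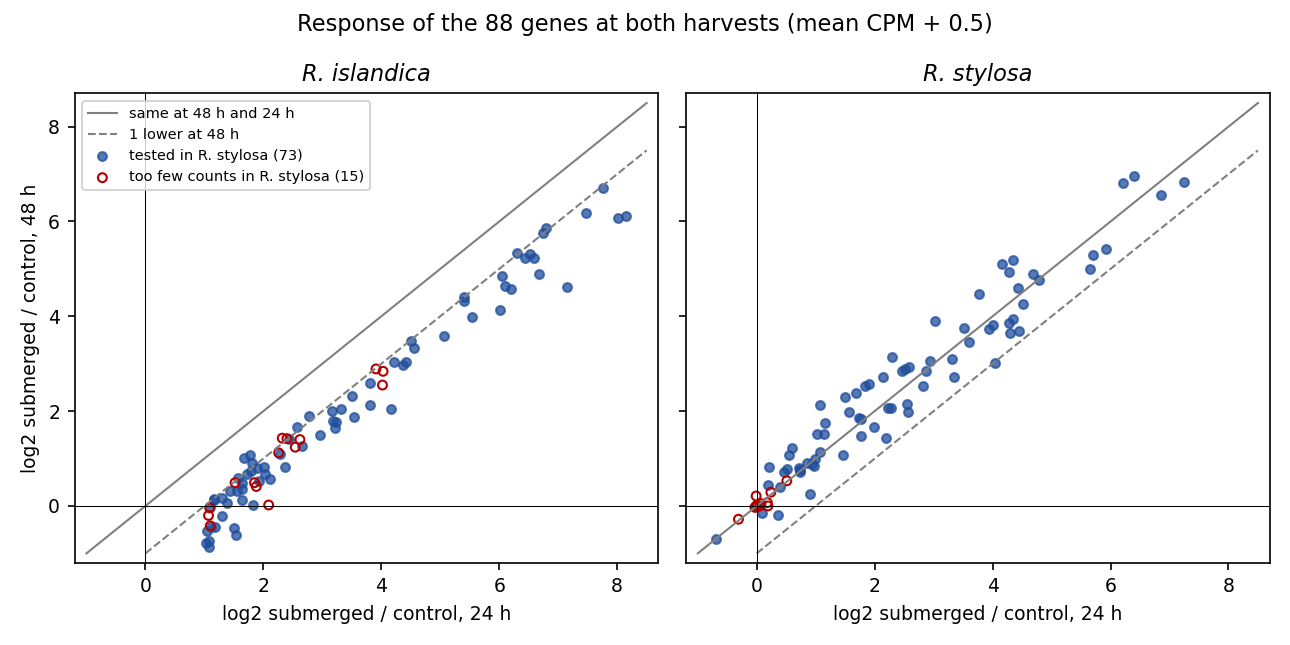
Log2 of submergence over control (group means of CPM plus 0.5) at 24 h (x axis) and at 48 h (y axis) for the 88 genes in *R. islandica* (left) and *R. stylosa* (right); filled points are the 73 genes tested in *R. stylosa* and open circles the 15 with too few counts there. In *R. islandica* the choice of genes placed the points near or below the dashed line of a drop by 1, and in *R. stylosa* they scatter around the line of equal response at both harvests.

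In single libraries the groups were mostly separate. For 83 of the 88 genes all 3 *R. islandica* libraries submerged for 24 h were above all 3 controls of that harvest, where 42.7% of all tested genes showed this order. For 80 of the 88 genes all 3 libraries submerged for 48 h were below all 3 submerged for 24 h, against 11.4% of all tested genes. Both orders follow from the choice of the genes, and nothing is read from them.

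The libraries of a group did not contribute equally. Replicate 1 at 48 h of submergence was the lowest of its group for 73 of the 88 genes (83.0%, against 47.0% of all tested genes), and at 24 h of submergence replicate 3 was the highest for 52 genes (59.1%, against 26.2% of all tested genes). When the 48 h submergence replicate 1 was left out, 58 of the 88 genes still had a change of -1 or lower from 24 to 48 h, the median was -1.14, and the gene with the smallest change was at -0.59. Applied without that library, the limits chose 64 genes, and without 24 h submergence replicate 3 they chose 70, of which 61 were among the 88. Genes were also chosen on 2 replicates and read in the third, as a description without a test. Genes chosen on replicates 2 and 3 (87 genes) had a median second-day change of -1.02 in replicate 1, those chosen on replicates 1 and 3 (95 genes) of -0.86 in replicate 2, and those chosen on replicates 1 and 2 (87 genes) of -1.18 in replicate 3. In the replicates used for the choice the medians were -1.19, -1.25 and -1.23. The left-out replicate showed a fall for 83, 93 and 87 of these genes, of which 45, 37 and 53 fell by 1 or more. These shares were not counted for all genes in a left-out replicate. On the means of 3 replicates, 37.3% of all tested genes fell and 1.01% fell by 1 or more. Nearly all of the genes chosen in this way were lower at 48 h in the left-out replicate. Without the matching share of all genes, this is not read as particular to the chosen genes. The median drop was smaller in the left-out replicate than in the replicates that had selected the genes.

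The genes in which both rise and fall were large illustrate the pattern. Roisl.0185s0084 had 43.8, 71.4 and 87.6 CPM in *R. islandica* submerged for 48 h and 266, 401 and 555 CPM after 24 h of submergence, whereas the 6 control libraries were between 1.91 and 2.72 CPM. Its level in air was low but was counted in every control library, and its second-day libraries were all below its first-day libraries. The edgeR log2 fold change was 7.31 ± 0.34 (SE) for submergence against control at 24 h, 4.72 ± 0.32 at 48 h, and -2.70 ± 0.27 for 48 h against 24 h of submergence. In *R. stylosa* the gene reached 109, 250 and 120 CPM after 48 h and 229, 338 and 182 CPM after 24 h of submergence, against 2.97 to 4.53 CPM in the 6 controls. It rose there too, by 5.90 ± 0.39 at 24 h (edgeR adjusted p = 9.85e-07, glmTreat) and by 5.34 ± 0.38 at 48 h (adjusted p = 1.27e-06). The change from 24 to 48 h was -0.63 ± 0.31 (adjusted p = 0.287) with overlapping libraries. It became -1.18 ± 0.22 (adjusted p = 0.0283) without *R. stylosa* 48 h submergence replicate 2.

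Roisl.0210s0191 had 114, 82.7 and 102 CPM in *R. islandica* submerged for 48 h and 569, 555 and 443 CPM after 24 h of submergence. Controls had 17.8, 39.3 and 14.1 CPM at 48 h and 40.5, 23.6 and 21.5 CPM at 24 h. All groups except the 2 control groups were separate from each other. In *R. stylosa* the gene had 182, 175 and 150 CPM after 48 h and 239, 272 and 205 CPM after 24 h of submergence, against 84.8, 73.9 and 97.4 CPM and 146, 94.0 and 122 CPM in the controls at 48 and 24 h. The control level was thus higher in *R. stylosa* than in *R. islandica*. The *R. stylosa* log2 fold changes of 0.77 ± 0.17 at 24 h and 0.69 ± 0.17 at 48 h were not past the threshold of 1 (edgeR adjusted p = 1.0 for both), and the change from 24 to 48 h was -0.51 ± 0.17 (adjusted p = 0.126).

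The most abundant gene, named here after its values were seen, was Roisl.0209s0438. It had 820, 1380 and 1020 CPM in *R. islandica* after 48 h and 3430, 1790 and 2790 CPM after 24 h of submergence, against 6.29 to 18.9 CPM in the 6 controls. In *R. stylosa* it had 81.7, 160 and 40.0 CPM after 48 h and 141, 125 and 78.2 CPM after 24 h of submergence, with 6.47 to 31.9 CPM in the controls. The control levels of both species were of a similar order, but the submerged *R. islandica* leaves held far more of this transcript than the submerged *R. stylosa* leaves. The *R. stylosa* change of 1.95 ± 0.49 at 24 h missed the threshold (edgeR adjusted p = 0.0796) and that of 2.50 ± 0.50 at 48 h passed it (adjusted p = 0.0106).

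In *R. stylosa*, 73 of the 88 genes had enough counts to be tested and 15 did not. The tests asked whether these genes also responded in *R. stylosa*, and whether they dropped there on the second day. After 24 h of submergence 47 of the 73 genes were higher than in controls by a log2 fold change past 1, and none was lower (edgeR glmTreat, adjusted p under 0.05 over 19886 genes). Among all tested genes 7.77% were higher and 4.92% lower. After 48 h 52 of the 73 were higher and none lower, against 10.5% and 9.26% of all tested genes. DESeq2 called 43 genes higher at 24 h and 49 at 48 h, and likewise none lower, and at an unadjusted p under 0.05 against no change 1 gene was lower at each harvest, where 30.1% of all tested genes were lower at 24 h and 34.0% at 48 h. In the log2 fold changes, 70 of the 73 genes were above 0 at 24 h and 69 at 48 h, and no gene was at -1 or lower at 24 h. For 61 of the 73 genes all 3 libraries submerged for 24 h were above all 3 controls, against 41.9% of all tested genes.

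The genes called at the 2 harvests were largely the same. Of the 73 genes, 45 were higher at both harvests, 2 at 24 h only, 7 at 48 h only and 19 at neither, and these differences between the harvests were not tested gene by gene. The same split was not counted for all tested genes, so the overlap is not read as particular to the chosen genes. The median log2 fold change of the 73 genes was 2.84 at 24 h and 1.61 at 48 h in *R. islandica*, against 2.95 at 24 h and 3.02 at 48 h in *R. stylosa*, where the median of all tested genes was 0.01 at both harvests. At 24 h the fold change was higher in *R. islandica* for 49 of the 73 genes, and at 48 h it was higher in *R. islandica* for 29 and lower for 44. Over all 88 genes, on the scale of CPM plus 0.5, *R. islandica* had a median of 2.49 at 24 h, against 1.76 for *R. stylosa*. The *R. islandica* values are those that chose the genes, and the difference between the species was not tested.

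The drop on the second day, by which the genes had been chosen, was small in *R. stylosa*. The log2 fold change of 48 h against 24 h of submergence had a median of -1.43 for the 73 genes in *R. islandica*, against -0.17 in *R. stylosa*, with a range there of -1.29 to 1.14, and 43 of the 73 genes were below 0. The median of all tested genes was -0.01. The test against no change called 1 of the 73 genes lower and none higher, against 0.714% and 0.297% of all tested genes (edgeR glmQLFTest). At an unadjusted p under 0.05 there were 6 lower and 2 higher, where 11.4% of all tested genes were lower and 8.31% higher. DESeq2 called 1 of the 73 lower and 1 higher, against 4.06% and 2.21% of all tested genes. In single libraries, all 3 submerged for 48 h were below all 3 submerged for 24 h for 9 of the 73 genes and above them for 3, against 12.5% and 11.9% of all tested genes. For 47 of the 73 genes the estimate lay more than 2 SE above -1. The share of all tested genes was not counted for this, and their 5% point was -0.74. Nothing about the 73 genes is therefore read from this count. The rule that chose the genes, applied to the *R. stylosa* means, was met by none of the 88, and by 0.141% of all genes tested there.

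One library mattered for this comparison. *R. stylosa* 48 h submergence replicate 2 was the highest of its group for 41 of the 73 genes (56.2%, against 23.5% of all tested genes), and its summed level of 7390 CPM was above the 4910 and 4700 CPM of the other 2. Without it 8 genes were called lower at 48 h than at 24 h of submergence, where 1.46% of all tested genes were called lower, and the median of the members was -0.32. The summed level of the 2 other libraries was below all 3 libraries submerged for 24 h. The part of this library in the result was not tested further. Replicate 2 had the highest sum in all 4 *R. stylosa* groups, but by unlike amounts. It had 931 against 905 and 906 CPM in the 24 h controls, and 7390 against 4910 and 4700 CPM after 48 h of submergence. Whether the replicate number had a part in this was not tested. With the replicate number as a block, edgeR called 1 of the 73 genes lower, where 1.25% of all tested genes were. The median of the 73 genes was then -0.19. For each of the 73 the *R. islandica* change was the more negative, a direction that the choice of genes favoured.

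The single gene called lower on the second day was Roisl.0115s0249. It had 100, 142 and 98.9 CPM in *R. stylosa* submerged for 48 h and 202, 245 and 176 CPM after 24 h, against 80.3, 96.9 and 108 CPM and 103, 120 and 106 CPM in the controls at 48 and 24 h. On the second day its level was back in the range of the controls in 2 of the 3 libraries. The change of -0.87 ± 0.18 passed the threshold narrowly (edgeR adjusted p = 0.0474), and this call was lost when any of 10 of the 12 libraries was left out, with adjusted p of 0.0528 to 0.157. The rise of 0.70 ± 0.18 at 24 h was not past 1 (adjusted p = 1.0). In *R. islandica* it had 230, 307 and 308 CPM after 48 h and 435, 694 and 672 CPM after 24 h of submergence, against 131 to 137 CPM and 166 to 190 CPM in the controls at 48 and 24 h.

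The genes with the largest rise in *R. stylosa* were nearly absent from control leaves of both species. Roisl.0007s0495 had no counts in the 6 *R. islandica* controls, where it had 3.21, 8.56 and 10.4 CPM after 48 h and 7.18, 32.4 and 28.8 CPM after 24 h of submergence. Its submerged groups overlapped, with the first replicate low at both harvests. With 3 counts over the control group as a floor, the level was at least 260-fold higher at 48 h and at least 1130-fold higher at 24 h. In *R. stylosa* it had 33.1, 77.1 and 60.4 CPM after 48 h and 26.2, 46.5 and 40.9 CPM after 24 h of submergence. The controls held 1 count in all at 48 h and 2 counts at 24 h, which gives ratios of 6380 (95% exact counting interval 1140 to 252000) and 1960 (543 to 16200). The rise was called at both harvests (edgeR adjusted p = 1.52e-07 and 4.63e-07 at 48 and 24 h), and the change from 24 to 48 h was 0.58 ± 0.29 (adjusted p = 0.299).

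Roisl.0115s0364 had 12.5, 18.6 and 17.0 CPM in *R. islandica* after 48 h and 38.9, 56.7 and 51.4 CPM after 24 h of submergence, against at most 0.726 CPM in any control. In *R. stylosa* it had 84.4, 64.0 and 54.7 CPM after 48 h and 96.1, 62.3 and 93.6 CPM after 24 h of submergence, against at most 0.178 CPM in any control. It dropped in all *R. islandica* libraries on the second day, whereas its submerged *R. stylosa* libraries overlapped. The rise was 9.10 ± 0.44 at 48 h and 10.39 ± 0.49 at 24 h (edgeR adjusted p = 6.32e-08 and 9.76e-08), and the change between the harvests was -0.33 ± 0.25 (adjusted p = 0.490). The control groups held 11 counts at 48 h and 5 at 24 h, so the size of this rise rests on few control counts.

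**Figure D3:**
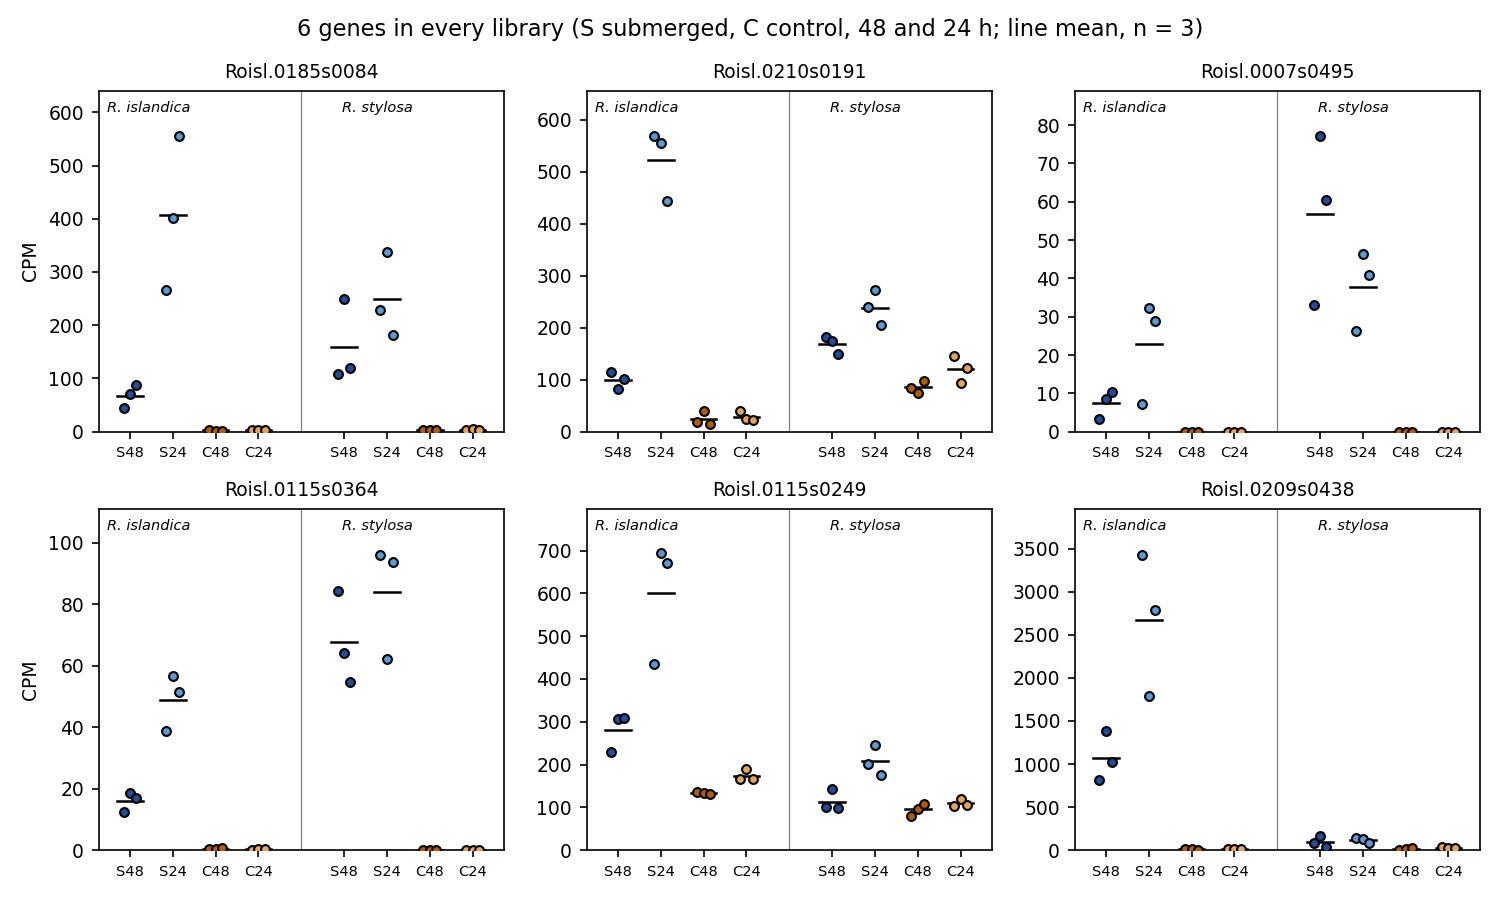
Level in CPM (y axis, linear, from 0) of 6 of the genes in every library, with *R. islandica* on the left and *R. stylosa* on the right of each panel (S48 and S24, submerged for 48 and 24 h; C48 and C24, controls; line, mean of 3). In *R. islandica* the libraries submerged for 48 h sit below those submerged for 24 h, except for Roisl.0007s0495, where the groups overlap; in *R. stylosa* the submerged groups overlap in 4 of the 6 panels and are separate for Roisl.0210s0191 and Roisl.0115s0249.

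The number of calls in *R. stylosa* is given by the size of the rise in *R. islandica*. Of the genes that had risen by 4 or more in *R. islandica*, 24 of 26 tested were called higher in *R. stylosa* at 24 h and 25 at 48 h, with a median log2 fold change of 4.44 at 24 h. For a rise of 2 to 4 these numbers were 12 and 13 of 19, with a median of 2.90, and for a rise of 1 to 2 they were 11 and 14 of 28, with a median of 1.78. The second-day change in *R. stylosa* had medians of -0.33, -0.12 and 0.14 in the same 3 groups, and 20 of the 26 strongly raised genes were below 0. Differences between the 3 groups were not tested, and the groups also differed in their level, at medians of 156, 25.4 and 10.8 CPM after 24 h of submergence in *R. islandica*.

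Genes with a first-day rise above the same limit but another course on the second day served for comparison. In *R. islandica*, 2464 genes had risen by at least 1 and changed by less than 0.5 from 24 to 48 h of submergence (held genes), and 68 had risen by at least 1 and then by 1 or more again. Of the held genes, 2229 were tested in *R. stylosa*. Of the 73 chosen genes 64.4% were called higher at 24 h, against 31.4% of the held genes, and at 48 h 71.2%, against 41.6%. The median log2 fold change of the held genes was 0.93 at 24 h and 1.12 at 48 h. The sets also differed in the size of their rise, and on the log2 scale of CPM plus 0.5 the 73 chosen genes had a median rise of 2.78 in *R. islandica*, against 1.53 for the held genes. Among genes with a rise of 4 or more, 92.3% of the 26 chosen genes and 90.2% of 92 held genes were called higher in *R. stylosa* at 24 h, and 96.2% of the chosen and 92.4% of the held genes at 48 h. With a rise of 2 to 4 the shares at 24 h were 63.2% of 19 chosen and 57.9% of 537 held genes, and with a rise of 1 to 2 they were 39.3% of 28 chosen and 19.2% of 1600 held genes. These sets were chosen on the same *R. islandica* values, and the differences between them were not tested.

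The median second-day change in *R. stylosa* was small in all these sets. It was -0.17 for the 73 chosen genes, 0.13 for the held genes and 0.40 for 58 tested genes that rose further. The spread differed, with 5 and 95% points of -0.84 and 0.87, -0.36 and 0.72, and -1.27 and 1.47 in that order. The share of genes below 0 was 58.9% for the chosen genes, 29.6% for the held genes, 32.8% for the genes that rose further and 51.0% for all tested genes. Within the genes with a rise of 4 or more in *R. islandica*, the median was -0.33 for the chosen and 0.24 for the held genes, and 76.9% of the chosen and 26.1% of the held genes were below 0. With a rise of 2 to 4 the medians were -0.12 for the chosen and 0.18 for the held genes, with 52.6% of the chosen and 31.1% of the held genes below 0. With a rise of 1 to 2 the medians did not keep this order, at 0.14 for the chosen and 0.12 for the held genes. The shares below 0 kept it, with 46.4% of the chosen and 29.3% of the held genes. The median of the 73 genes varied between the 3 libraries submerged for 48 h with an SD of 0.368, and it was -0.03 without replicate 1 and -0.01 without replicate 3 of that group. Neither its direction nor the difference between the sets was tested.

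**Figure D4:**
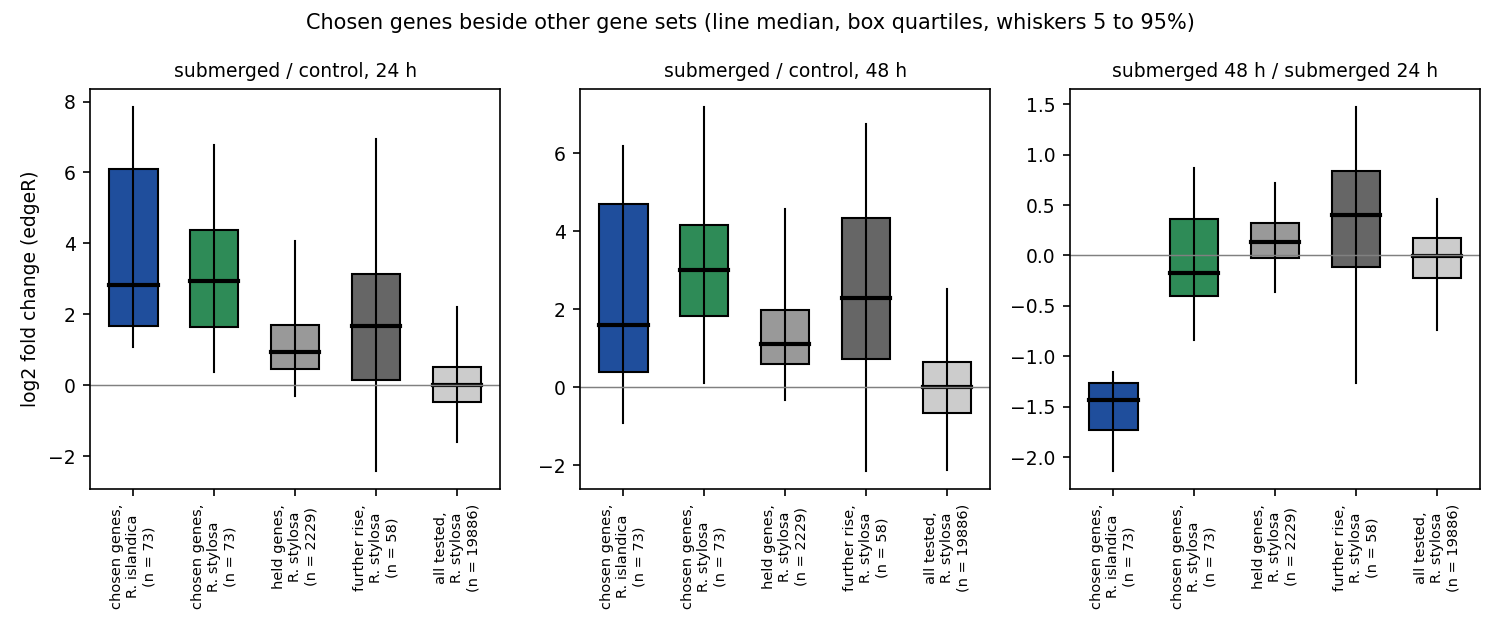
EdgeR log2 fold changes (y axes) for submergence against control at 24 h (left) and 48 h (middle) and for 48 h against 24 h of submergence (right): the 73 chosen genes in *R. islandica* and in *R. stylosa*, then, in *R. stylosa*, genes that held their level in *R. islandica* (2229), genes that rose further there (58) and all tested genes (19886). Lines are medians, boxes quartiles and whiskers the 5 and 95% points; in the right panel the chosen genes have medians of -1.43 in *R. islandica* and -0.17 in *R. stylosa*.

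Some of the genes gave almost no signal in *R. stylosa*. For 17 of the 88 every *R. stylosa* group mean was under 0.5 CPM, and 5 of these had no counts in any of the 12 libraries. Their level after 24 h of submergence in *R. islandica* was between 1.63 and 891 CPM, with a median of 17.8 CPM. The most abundant of them, named after its values were seen, was Roisl.0009s0192 with 319, 484 and 440 CPM after 48 h and 617, 809 and 1250 CPM after 24 h of submergence in *R. islandica*. Its controls had 131 to 178 CPM at 48 h and 70.6 to 271 CPM at 24 h, a wide spread for an abundant transcript. In *R. stylosa* it had 8 counts in total, all in 1 library of plants submerged for 24 h. Of the 73 tested genes, 32 had the higher mean in *R. islandica* at 48 h of submergence, 57 at 24 h of submergence, 43 in the 48 h controls and 40 in the 24 h controls. Levels of both species were read against 1 transcriptome, and this comparison was not tested. The share of all genes with so little signal in *R. stylosa* was not counted. The 17 genes are therefore not read as particular to this set. Of the 2464 held genes, 2229 had enough counts to be tested there.

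The genes were also described by features that the choice had not used. They fell into 87 orthogroups, groups of genes descended from 1 ancestral gene, so that only 1 pair shared a group. They were alone in their orthogroup in 70.5% (62 genes), against 80.9% of all genes tested in *R. islandica*, and 92.0% belonged to an orthogroup marked as universal, against 91.3%. More than 1 isoform was annotated for 5 of the 88 (5.68%, against 7.51%), and the median coding length was 926 bases, with a range of 192 to 3024, against 1100 bases. No 2 of them had consecutive identifiers. The identifier block 0210 held 13 of the 88 (14.8%), where it held 7.30% of all 30646 genes, including those with too few counts to be tested. This base is wider than the tested genes used for the features above, and nothing is read from the difference.

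Relatives of these genes are described without a test. Other members of the same orthogroups comprised 52 genes tested in *R. islandica*, related to 22 of the 88. Of these 26 (50.0%) had risen by at least 1 after 24 h of submergence, against 15.8% of all tested genes, and 5 (9.62%) had fallen by 1 or more from 24 to 48 h, against 1.01%. Their median changes were 0.99 for the rise and -0.38 for the second day, while those of all tested genes were 0.11 and 0.08. The counting program can divide reads between similar transcripts, so the values of relatives are not independent of those of the 88 genes, and how much was shared was not tested. The direct neighbours by identifier gave 30 of 121 genes (24.8%) with a rise of at least 1 and 2 with a fall of 1 or more.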

How the data were processed

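RNA-seq of young leaves was analysed from 24 libraries. The authors checked reads with FastQC 0.12.0 and assigned them with kallisto to the *R. islandica* transcriptome for both species; the tables they deposited hold expected counts (estimated counts) per transcript without normalization. Isoforms were summed and rounded (11.8% of values were not whole). All columns were matched to samples. CPM used the library total with a pseudocount of 0.5.

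The 12 *R. stylosa* libraries were fitted in 1 model of 4 groups with edgeR 4.0.16 in R 4.3.3 (filterByExpr, TMM, quasi-likelihood): glmTreat against a log2 fold change of 1 for submergence against control, and glmQLFTest for 48 h against 24 h, at a Benjamini-Hochberg adjusted p under 0.05. *R. islandica* fold changes came from the same fit of its own libraries, without p-values. TMM lowered the median of all genes, relative to library totals, by up to 0.158 (*R. islandica*) and 0.253 (*R. stylosa*) on the log2 scale, at 48 h against control. DESeq2 1.42.0 was an alternative. The fit was also run on simulated data in which a small share of genes was changed, in the 24 h submergence group only. That run does not cover changes as widespread as those in these data. The p-values measure the spread between these libraries, and counting intervals cover counting error only.

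The members and lists were chosen with earlier results of these data known. Genes named in the text were the 2 with the largest smaller value of rise and fall in *R. islandica* (at least 10 CPM), the 2 with the largest called rise in *R. stylosa* at 24 h and those called between its submerged harvests; others are named as chosen after their values were seen.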

Additional observations from a re-analysis of the deposited data

How the results depend on the processing

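The choice of the 88 genes depended on its limits. With limits of 0.8 in place of 1 it took 165 genes, and with 1.2 it took 40. A pseudocount of 0.1 CPM gave 126 and one of 1 CPM gave 74, TMM scaling gave 101, and single transcripts gave 92. Leaving out each *R. islandica* library in turn gave 64 to 120 genes, and 29 of the 88 were kept in all 12 of these choices. In *R. stylosa*, 41 of the 47 genes called at 24 h and 46 of the 52 called at 48 h kept the call under all alternatives run (DESeq2 size factors, DESeq2, no filter, replicate block, each library left out). With single libraries left out, the number higher was 42 to 48 at 24 h and 47 to 53 at 48 h, and the median log2 fold change was 2.79 to 3.01 at 24 h, 2.75 to 3.19 at 48 h and -0.32 to -0.01 for 48 h against 24 h. Between the submerged harvests the number called lower was 0 to 8 with single libraries left out, 0 with DESeq2 size factors and 0 with glmTreat against 1, and DESeq2 called 1 higher; the cause was not tested.

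A replicate block left 45 genes higher at 24 h, 53 at 48 h and 1 lower between the harvests, so no count moved by more than 1.5 times. Same-numbered *R. stylosa* libraries did not deviate together throughout. Correlations were -0.211 to 0.16 for submergence against control at 24 h and 0.0181 to 0.135 at 48 h. They were -0.0634 to 0.347 between the submerged harvests and 0.182 to 0.58 between the control harvests. The main fit did not use the number as a pairing, and the replicate block gives the counts with it. Genes with few counts limit the data: 15 of the 88 could not be tested in *R. stylosa*, and medians were 2.95 and 3.02 also with genes at or under 3 control counts set to their floor.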
